A study of Mus musculus with 14 samples.

Results

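Gene expression was compared between wild-type (WT) mouse embryonic fibroblasts (MEFs, Hsf1 +/+) and MEFs lacking the heat shock transcription factor gene (Hsf1 null, Hsf1 -/-), each after 72 hours of culture with D2A1 cells, a mouse breast cancer line. The comparison rests on 4 of the 14 arrays of the study, 2 of WT and 2 of null MEFs, chosen by their sample titles. Both groups were grown in DMEM with 10% FCS and shared the tumor cell partner, and the cell types were separated by flow sorting before RNA extraction. Mitomycin C was given to the MEFs only where the cancer cells were to be profiled, per the labels' protocols, so it does not apply to these arrays. WT and null MEFs grown alone (2 arrays each) served as controls, and tumor cells grown alone (2 arrays) as the reference for tumor-typical genes. The computed and subtracted tumor shares instead used the tumor cells sorted from co-culture with WT or with null MEFs (2 arrays each). The MEFs of those cultures had mitomycin C, per the labels' protocols. The sources used here do not say from how many embryos or lines the MEFs of either genotype came, how long they had been in culture or whether replicates were separate cultures, so genotype and MEF line cannot be told apart and the p-values rest on the spread between these arrays alone, which may be technical.

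HSF1 is the transcription factor that switches on chaperone genes after heat and other protein-damaging stress, and it is also active in many cancers and in the fibroblasts around tumors. Such cancer-associated fibroblasts secrete growth factors, chemokines such as CXCL12 and transforming growth factor beta (TGF-beta), and they deposit and remodel the extracellular matrix. Fibroblasts also sense viral nucleic acids and answer type I interferon, which acts through STAT2 and IRF9 on genes that carry interferon response elements near their start sites.

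Levels are log2 signals from the authors' value table. In that table background had not been subtracted, so folds of weakly expressed genes are understated. Differences are on the log2 scale and are given ± SE of a limma fit over all 14 arrays, with n = 2 arrays on each side. Their p-values were adjusted by the Benjamini-Hochberg method over the 25840 genes tested, and a gene passed at an adjusted p under 0.05. Of 59305 spots, 63.2% to 63.4% gave a signal well above background on the 4 arrays, and 2 arrays a group limit the precision of every value. Replicate A of every group was on the same slide, and replicate B on a second one, which puts both genotypes on each slide. Spots flagged as outliers made up 2.85% (WT) and 3.01% (null) on the A arrays, and 0.305% and 0.388% on the B arrays.

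Sorted WT MEFs held more tumor cell signal than sorted null MEFs did. The 55 genes at least 32-fold higher in tumor cells than in either kind of MEF, all grown alone, had a median of 33.7% of their tumor cell level in WT array A and 32.7% in WT array B. The median was 5.95% in null array A and 7.0% in null array B. The 136 genes typical of both kinds of MEF lay at 61.0% and 63.4% of the level in the same MEFs alone in the WT arrays, and at 90.2% and 93.4% in the null arrays. A signal of WT MEFs was seen on 1 of the null arrays. The 40 genes at least 32-fold higher in WT MEFs than in null MEFs and tumor cells lay at a median of 4.81% (interquartile range 4.43% to 5.74%) of their WT level in null array A, and at -0.07% in null array B. Genes high in WT MEFs, such as Thy1, Dkk3, Penk, Postn and Cxcl15, also stood higher in null A than in null B, and the part of that signal in their values was not tested. In sorted material fewer cells of a type and less RNA per cell cannot be told apart.

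**Figure D1:**
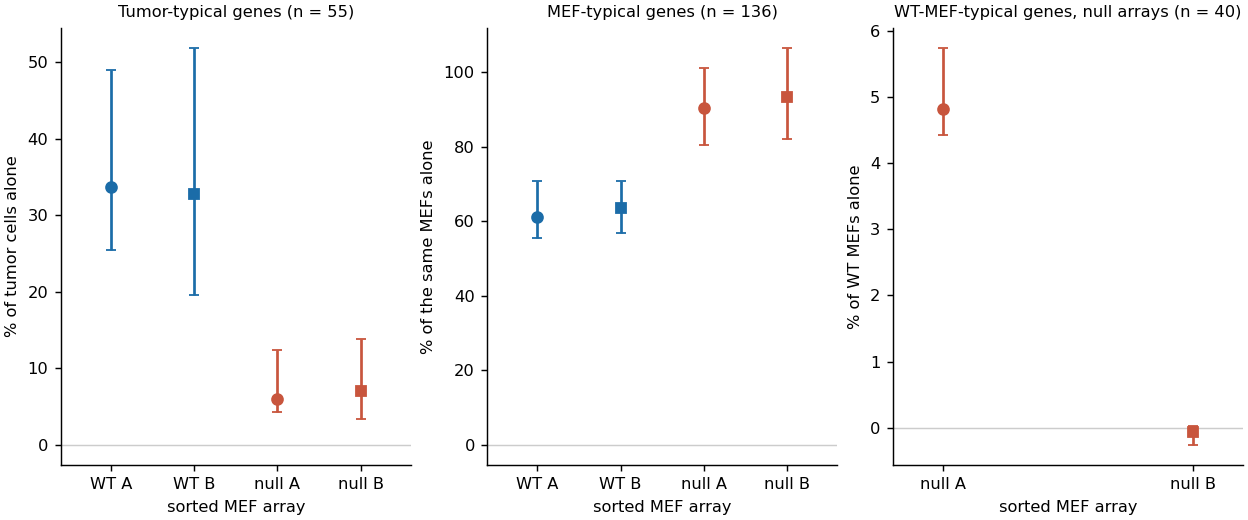
Median level of genes typical of one cell type in each sorted MEF array, in percent of the cell type they mark, with bars for the interquartile range over genes. The left panel shows 55 tumor-typical genes (33.7% and 32.7% in WT, 5.95% and 7.0% in null), the middle panel 136 MEF-typical genes, and the right panel 40 WT-MEF-typical genes, at 4.81% in null A and -0.07% in null B.

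All 20 fibroblast markers were tested, and each was well above background on at least 1 array of each genotype. Their median level on the log2 scale was 13.51 and 13.42 in WT and 11.46 and 11.47 in null MEFs, and 6.05 and 6.46 in tumor cells alone. Their summed level on the log2 scale was 20.41 and 20.44 in WT and 19.57 and 19.71 in null MEFs. Tumor cells alone reached 19.06 and 18.97, so this sum sets the 2 cell types little apart. Pdgfra, a receptor typical of fibroblasts, was at 13.41 and 13.30 in WT and 12.14 and 12.07 in null MEFs and at 11.42 and 11.51 in tumor cells alone. Of these 20, 14 were higher in WT and 1 was higher in null MEFs, against 14.8% of all genes tested in each direction. The collagen chains Col1a1 (17.03 and 17.14 in WT, 16.80 and 16.83 in null, adjusted p = 0.642, limma) and Col3a1 (adjusted p = 0.702) did not pass. Thy1, a surface glycoprotein used to mark fibroblasts, was at 14.33 and 14.47 in WT and at 10.48 and 5.61 in null MEFs, and at 5.91 and 6.28 in null MEFs alone. Null array A stood well above null array B and above both arrays of null MEFs alone. Epithelial markers summed to 16.23 and 16.43 in WT and 14.91 and 15.44 in null MEFs, where tumor cells alone had 16.52 and 16.58 and MEFs alone 12.18 to 13.10. Of 24 epithelial markers 4 were dim on all 4 arrays, Epcam among them. Macrophage and leukocyte markers summed to 12.54 and 12.69 in WT and to 11.60 and 11.67 in null MEFs, with tumor cells alone at 13.41 and 13.45. Ptprc, the pan-leukocyte marker, was low in both, at 5.94 and 5.90 in WT and 5.63 and 5.96 in null MEFs. Endothelial markers summed to 11.68 and 11.91 in WT and 9.96 and 9.72 in null MEFs, of which 1 of 5 tested passed, and muscle and neural markers to 13.81, 13.77, 13.49 and 13.70 in the same order.

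Between the genotypes 7638 of 25840 genes passed in co-culture (29.6%), 3816 higher in WT MEFs (14.8%) and 3822 higher in null MEFs (14.8%). Of these, 1409 and 1255 differed at least 2-fold. Without null array A, which held WT MEF signal, 6795 passed, 3247 higher in WT and 3548 in null MEFs. Among 3774 genes at least 2-fold higher in tumor cells than in WT or in null MEFs, all grown alone, 1508 were higher in WT and 401 in null MEFs. A gene low in MEFs of either genotype could enter this set without exceeding the other, so its choice was not independent of genotype. When the tumor share was subtracted, 9250 genes passed, 3632 higher in WT (14.1%) and 5618 higher in null MEFs (21.7%), so the even split became 39.3% WT-higher. That step used a single share per array, while the tumor-typical genes had interquartile ranges of 25.4% to 49.0% (WT A) and 19.6% to 51.8% (WT B). It set 437 and 676 tested genes to the lowest signal well above background on the WT arrays, and 50 and 110 on the null arrays. The part of these limits in the split was not tested. Without the genes higher in tumor cells, 5568 passed, 40.2% of them WT-higher. By gene list, interferon-stimulated genes stood at one end and matrix, contractile, protease, TGF-beta and cholesterol synthesis genes at the other. Every list count below is to be read against the 14.8% of all genes in each direction.

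**Figure D2:**
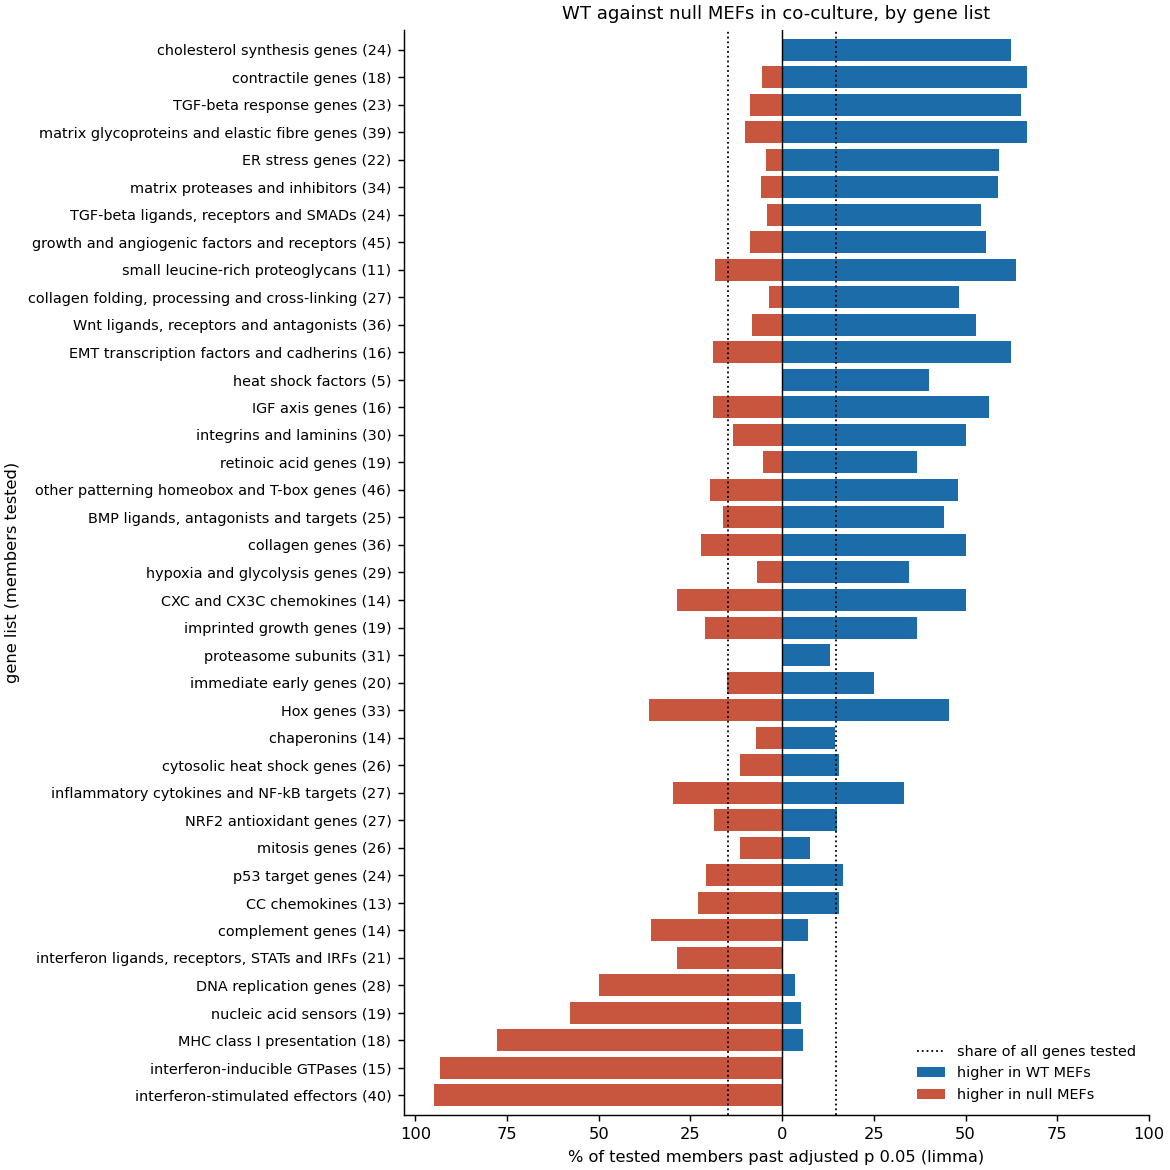
Share of the tested members of each of 39 gene lists that passed (limma, adjusted p under 0.05) as higher in WT MEFs (right, blue) or in null MEFs (left, red) in co-culture, with the number of members tested in brackets. Dotted lines mark 14.8%, the share of all tested genes in either direction; interferon effector, GTPase and MHC class I lists extend furthest to the left and contractile, matrix glycoprotein and TGF-beta response lists furthest to the right.

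Hsf1 itself read 12.05 and 12.04 in WT MEFs and 10.52 and 10.67 in null MEFs, a difference of 1.45 ± 0.12 (2.74-fold, adjusted p = 1.02e-05, limma). Both null arrays stood below both WT arrays, yet well above background. In MEFs alone the null level was 10.07 and 9.97, and tumor cells alone had 12.83. Where the single probe lies relative to the deleted part is not given in the sources used here, so its remaining signal does not test the genotype. Hsf4, a related heat shock factor, was also higher in WT MEFs (1.68 ± 0.17, with 9.63 in tumor cells alone), while Hsf2 did not pass (0.42 ± 0.14, adjusted p = 0.0506). With the replicate block Hsf2 passed (adjusted p = 0.037), and over all alternatives its adjusted p ran from 0.0237 to 0.722.

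Most cytosolic heat shock genes did not pass. Of 26 tested, 4 were higher in WT and 3 in null MEFs, shares near the 14.8% of all genes, and the list median was 0.02. Hsph1, a large co-chaperone of the HSP70 machine, was at 14.27 and 14.37 in WT and 13.02 and 13.03 in null MEFs and at 14.51 in tumor cells alone. The groups did not overlap, and the difference was 1.30 ± 0.17 (adjusted p = 0.00018, limma). Dnaja4 (1.22 ± 0.10), Hspa4l (0.70 ± 0.13) and Ahsa1 (0.36 ± 0.11), which assist HSP70 or HSP90, were higher in WT MEFs too. Higher in null MEFs were the small heat shock proteins Hspb8 (by 0.66 ± 0.11) and Cryab (by 0.59 ± 0.13) and the co-chaperone Dnajb4 (by 0.83 ± 0.24). The abundant HSP70 gene Hspa8 read 16.75 and 16.75 in WT and 16.70 and 16.78 in null MEFs (adjusted p = 0.981), and the inducible Hspa1a (adjusted p = 0.824), Hsp90aa1 (0.23), Hspb1 (0.0678) and Dnajb1 (0.0835) did not pass either. With only the MEF arrays in the fit the count was 7 higher in WT and 2 in null MEFs, and without WT array A 3 and 1. On the processed scanner signals it was 2 and 0, and with the tumor share subtracted 3 and 6, with Hspa4l then lower in WT (-0.98). The computed tumor share of these genes' WT level, that is the share of tumor-typical signal times the level in the partner tumor cells, had a median of 43.5% (A) and 43.1% (B), and its part in the result was not tested. Among 14 chaperonin and mitochondrial chaperone genes Hspa9 (0.87 ± 0.16) and Pfdn5 (0.76 ± 0.19) were higher in WT and Hspd1 in null MEFs (by 0.43 ± 0.12). These shares were near or below the 14.8% of all genes. With 1 of the 4 arrays left out in turn the calls of Ahsa1 (0.2), Dnajb4 (0.163), Cryab (0.0632), Hspd1 (0.158) and Pfdn5 (0.0786) were lost at least once, with the largest adjusted p in brackets. Of 31 proteasome subunits 4 were higher in WT and 0 in null MEFs, the former near the 14.8% of all genes (2 in WT without WT array A, WT array B or null array B, and 0 on the processed scanner signals).

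Among the 39 gene lists, interferon-stimulated effectors had the largest share of members that passed in 1 direction. Short stretches before the start sites of 4 such effectors and of 2 interferon-inducible GTPases, Gbp3 and Irgm2, are shown because they carry the core of the interferon response element, a pair of GAAA blocks with 2 bases of any kind between them (GAAA, NN, GAAA), which the interferon-activated STAT and IRF complexes bind. The sequences are from RefSeq (build GRCm38.p6), written 5′ to 3′ on the strand of the gene, and capitals mark the core, which reads as a pair of TTTC blocks where it lies on the other strand.
Oas1a (chr5:120907526-120907585, minus strand): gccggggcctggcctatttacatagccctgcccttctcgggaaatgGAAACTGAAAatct
Rsad2 (chr12:26456538-26456597, minus strand): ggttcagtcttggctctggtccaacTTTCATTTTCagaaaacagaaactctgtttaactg
Ifit1 (chr19:34640779-34640838, plus strand): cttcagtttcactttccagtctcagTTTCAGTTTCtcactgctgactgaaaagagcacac
Isg15 (chr4:156200850-156200909, minus strand): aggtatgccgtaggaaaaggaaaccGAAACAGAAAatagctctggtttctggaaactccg
Gbp3 (chr3:142559980-142560039, plus strand): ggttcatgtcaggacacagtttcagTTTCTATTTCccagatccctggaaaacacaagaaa
Irgm2 (chr11:58214888-58214947, plus strand): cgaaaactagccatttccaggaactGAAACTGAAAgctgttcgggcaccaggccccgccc

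The core was searched on both strands in windows from 250 bases before to 50 bases after each start site. It occurred in 3.99% of the 27025 genes with a window, in 3.66% of the 13046 of them that were tested, in 5.05% of 2436 genes higher in null MEFs and in 3.27% of 2266 genes higher in WT MEFs. Where the excess reached 4-fold, the core was in 29 of 254 null-higher genes (11.4%) and in 12 of 265 WT-higher genes (4.53%). It was present in 10 of 27 interferon-stimulated effector genes with a window and in 9 of 10 interferon-inducible GTPase genes. These are counts of letters in a window, not of bound sites. The heat shock element (GAA, TTC and GAA, or TTC, GAA and TTC, with 2 bases between blocks) occurred in 0.662% of all windows, in 0.621% of those of tested genes, in 20 of the 2436 genes higher in null MEFs, in 9 of the 2266 higher in WT MEFs and in 3 of 20 cytosolic heat shock genes.

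Interferon-stimulated effectors, the antiviral proteins that interferon induces, were higher in null MEFs almost throughout. Of 40 tested, 38 were higher in null and 0 in WT MEFs, against 14.8% of all genes in the former direction, with a median WT minus null difference of -2.05. Rsad2, an enzyme that makes an antiviral nucleotide, was at 6.0 and 6.01 in WT and 12.17 and 12.35 in null MEFs. Its null level was 76.5-fold higher (a log2 difference of 6.26 ± 0.31, adjusted p = 5e-07, limma), and no null array came near a WT array. Oas2, a sensor of double-stranded RNA that activates RNase L, read 8.16 and 8.19 in WT and 14.16 and 14.42 in null MEFs (69.4-fold, adjusted p = 2.6e-08). Its relative Oas1a stood at 9.63 and 9.84 in WT and 14.89 and 15.05 in null MEFs, a difference of 5.24 ± 0.11; the Oas1 genes are near copies, so their signals may not be independent. Further members were Usp18, the deubiquitinase that restrains interferon signalling (higher by 4.63 ± 0.21 in null MEFs), Mx1 (4.46 ± 0.24), Ifi44 (3.93 ± 0.20), Oas3 (3.19 ± 0.16), Ifit1 (2.98 ± 0.14), Bst2 (2.68 ± 0.14) and the ubiquitin-like Isg15 (1.42 ± 0.14). Only Ifi202b (adjusted p = 0.309) and Isg20 (adjusted p = 0.36) did not pass among the 40. Over the alternatives run on all 40, 35 to 38 of these genes were called higher in null MEFs, and 34 of 35 when genes higher in tumor cells were left out. On the arrays of sorted WT MEFs the computed tumor share of these genes' level had a median of 36.3% and 38.2%, and in null MEFs 12.4% and 11.7%. With that share subtracted the count was 38 higher in null and 1 in WT MEFs.

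**Figure D3:**
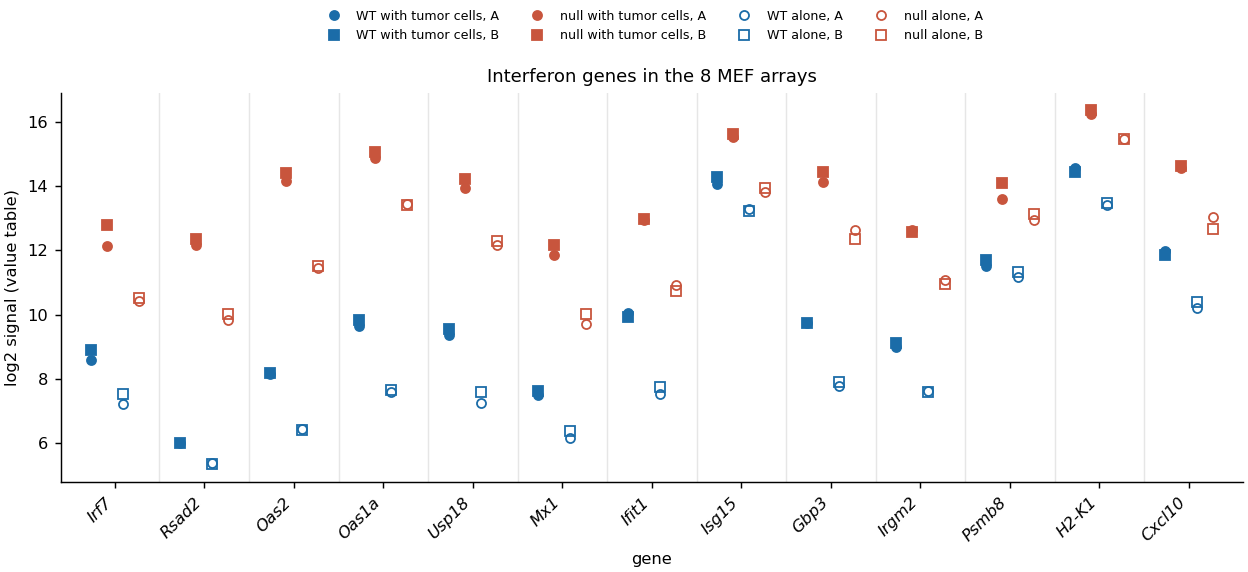
Log2 signal of 13 interferon-related genes on the 8 MEF arrays, with WT in blue, null in red, co-culture filled and alone open, and slides A and B as circles and squares. For each gene both null arrays in co-culture lie above both WT arrays in co-culture, for Rsad2 at 12.17 and 12.35 against 6.0 and 6.01.

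Interferon-inducible GTPases, which attack the vacuoles of intracellular parasites, showed 14 of 15 higher in null and 0 in WT MEFs (median -1.93). Gbp3 was at 9.72 and 9.74 in WT and 14.13 and 14.43 in null MEFs, a 23.5-fold difference (adjusted p = 1.22e-07, limma). Irgm2 was 11.6-fold higher, Iigp1 7.51-fold and Igtp 6.56-fold, and Gbp8 alone did not pass (adjusted p = 0.0923). Of 18 genes of MHC class I presentation, 14 were higher in null MEFs and 1 in WT MEFs (median -1.18). The immunoproteasome subunits Psmb9 and Psmb8 were higher in null MEFs by 2.37 ± 0.18 and 2.25 ± 0.23, the peptide transporter Tap1 by 1.65 ± 0.20, and the heavy chain H2-K1 by 1.80 ± 0.10 (14.58 and 14.44 in WT, 16.25 and 16.37 in null). The shared light chain B2m did not pass (higher by 0.50 ± 0.22 in null, adjusted p = 0.123), and Tapbpl, a tapasin relative, was the member higher in WT MEFs (0.62 ± 0.16), but its sign turned after the tumor share was subtracted (-0.67). Without the genes higher in tumor cells, 8 of 11 were higher in null and 0 in WT MEFs. With 1 array left out the Tapbpl call was lost (adjusted p up to 0.0991). MHC class I genes are close paralogs whose probes may share signal.

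Upstream of these genes, most members did not pass. Of 21 ligands, receptors, STATs and IRFs, 6 were higher in null and 0 in WT MEFs, with a median of -0.01. After the tumor share was subtracted the counts were 6 and 4, and in MEFs alone 5 and 5. Irf7, the factor that amplifies interferon production, was at 8.59 and 8.89 in WT and 12.15 and 12.80 in null MEFs (13.3-fold, adjusted p = 5.56e-06, limma). Irf9 and Stat2, parts of the signalling complex, were higher in null MEFs by 1.71 ± 0.12 and 1.11 ± 0.15. The receptor chains Ifnar1 (0.02 ± 0.12, adjusted p = 0.95) and Ifnar2 (-0.05 ± 0.14, adjusted p = 0.867) did not pass. Ifngr2, a chain of the interferon gamma receptor, was higher in null MEFs by 1.17 ± 0.16. Ifnb1, the interferon beta gene, was weakly expressed (5.39 and 5.46 in WT, 6.16 and 6.22 in null) and did not pass (adjusted p = 0.121). Among 19 nucleic acid sensors 11 were higher in null and 1 in WT MEFs. The RNA helicases Dhx58, Ifih1 and Ddx58 were higher in null MEFs by 2.92 ± 0.19, 2.58 ± 0.31 and 2.05 ± 0.12, and the DNA sensor Aim2, not well above background in WT MEFs, was at least 7.73-fold higher. The endosomal RNA sensor Tlr7 was higher in WT MEFs (0.68 ± 0.23). The Tlr7 call was lost with any 1 of the 4 arrays left out (adjusted p up to 0.245). Without WT array B the sensor count was 7 higher in null and 0 in WT MEFs, and on the processed scanner signals or with normexp 5 and 0.

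Chemokines went in both directions. Of 14 CXC and CX3C chemokines, 7 were higher in WT and 4 in null MEFs, and without WT array B or with normexp 8 and 2. Cxcl12, which attracts cells through the receptor CXCR4, was at 15.85 and 15.99 in WT and 12.78 and 12.63 in null MEFs. Both WT arrays exceeded both null arrays, and the fitted difference was 3.21 ± 0.17 (9.28-fold, adjusted p = 6.23e-07, limma). Cxcr4 was barely detected in null MEFs (6.19 and 6.02) and not well above background in WT MEFs, a difference of at least 2.15-fold (adjusted p = 0.00192). The neutrophil chemokines Cxcl5 (4.71 ± 0.34), Cxcl15 (6.18 ± 0.78), Ppbp (4.50 ± 0.22) and Cxcl1 (1.92 ± 0.42) were higher in WT MEFs. Cxcl15 stood at 9.86 and 6.33 in null A and B, so the null replicates differed widely. The interferon-inducible Cxcl10 was at 11.98 and 11.85 in WT and 14.56 and 14.64 in null MEFs, higher in the latter by 2.69 ± 0.23 (adjusted p = 1.29e-05). Cxcl16 was higher in null MEFs by 2.15 ± 0.22. Among 13 CC chemokines, Ccl5 (by 1.71 ± 0.27), Ccl27a (by 2.55 ± 0.25) and Ccl25 (by 0.55 ± 0.14) were higher in null, and Ccl9 (1.24 ± 0.21) and Ccl17 (1.27 ± 0.16) in WT MEFs. The WT share of this list was near the 14.8% of all genes. The Ccl25 call was lost without WT A or null A (adjusted p up to 0.0904). The monocyte attractants Ccl2 (adjusted p = 0.424) and Ccl7 (adjusted p = 0.34) did not pass.

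Inflammatory genes did not move together. Of 27 tested, 9 were higher in WT and 8 in null MEFs. Higher in WT were the interleukin 33 receptor Il1rl1 (4.07 ± 0.26), the interleukin 1 antagonist Il1rn (3.91 ± 0.24), the pentraxin Ptx3 (3.11 ± 0.60), Il11 (1.96 ± 0.14), the macrophage growth factor Csf1 (1.26 ± 0.09) and the adhesion molecule Vcam1 (1.14 ± 0.12). Higher in null MEFs were inhibitors and targets of NF-kB, among them Birc3 (by 1.39 ± 0.31), Nfkbie (by 1.30 ± 0.14), Relb (by 1.03 ± 0.19), Nfkbia (by 0.79 ± 0.17) and the cytokine Tnf (at least 1.74-fold, not well above background in WT MEFs). Il6 read 8.65 and 8.08 in WT and 7.87 and 8.50 in null MEFs and did not pass (adjusted p = 0.922), nor did Ptgs2 (adjusted p = 0.608). Of 14 complement genes, 5 were higher in null MEFs and 1 in WT MEFs. C3, the central complement component, was at 12.59 and 12.76 in WT and 15.39 and 15.97 in null MEFs, higher in null by 3.0 ± 0.36 (adjusted p = 0.00012, limma). Cfb, a subunit of the enzyme that cleaves it, was higher in null by 2.62 ± 0.17, and C4b in WT MEFs (1.25 ± 0.36). The C4b call was lost without WT A, WT B or null A (adjusted p up to 0.146). Without WT array B the complement count was 3 in null and 0 in WT MEFs, without null array B 3 and 1, and on the processed scanner signals 2 and 1.

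TGF-beta ligands, receptors and SMAD proteins leaned to the WT side, with 13 of 24 higher in WT and 1 in null MEFs (median 0.60). Tgfb1 was at 11.38 and 11.75 in WT and 9.79 and 10.12 in null MEFs. The groups did not overlap, and WT was 3.05-fold higher (1.61 ± 0.18, adjusted p = 6.16e-05, limma), with 11.27 in tumor cells alone. Tgfb3 was at 15.47 and 15.58 in WT and 14.22 and 14.58 in null MEFs (1.12 ± 0.21, adjusted p = 0.0019). Tgfb2 was at 12.96 and 12.73 in WT and 12.59 and 12.87 in null MEFs. Its arrays overlapped between genotypes, and it did not pass (0.11 ± 0.26, adjusted p = 0.821). The signalling receptor Tgfbr2 was higher in WT (1.08 ± 0.13), as were the accessory receptor Eng (3.02 ± 0.19), the latent TGF-beta anchors Ltbp1 (2.56 ± 0.19), Ltbp2 (2.32 ± 0.20) and Lrrc32 (3.59 ± 0.32) and the activin subunit Inhba (2.35 ± 0.11). Ltbp3 was the 1 member higher in null MEFs (by 0.47 ± 0.15), a call lost without WT A, WT B or null B (adjusted p up to 0.244). On the processed scanner signals the count was 8 higher in WT and 0 in null MEFs, and with the tumor share subtracted 15 and 0.

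Genes that TGF-beta induces in fibroblasts showed 15 of 23 higher in WT and 2 in null MEFs (median 0.56). Pmepa1, a feedback inhibitor, was higher in WT by 2.42 ± 0.16, the collagen cross-linker Lox by 2.07 ± 0.37, the actin-binding protein Tagln by 1.86 ± 0.33, the transcription factor Snai1 by 1.74 ± 0.15 and the matricellular protein Ctgf by 1.05 ± 0.25. Postn, which encodes periostin, was at 14.01 and 13.79 in WT and at 11.35 and 8.15 in null MEFs (4.15 ± 0.82, adjusted p = 0.00317, limma), with null A well above null B. Tgfbi went the other way, with 12.43 and 12.51 in WT and 15.36 and 15.77 in null MEFs, higher in null by 3.10 ± 0.31. Acta2, the smooth muscle actin of myofibroblasts, read 17.77 and 17.82 in WT and 17.23 and 17.43 in null MEFs and did not pass (adjusted p = 0.338). The Ctgf call was lost without WT A or null B (adjusted p up to 0.0729), and Postn passed with any 1 of the 4 left out (adjusted p up to 0.024). Without WT array A, and likewise on the processed scanner signals, 10 were higher in WT and 1 in null MEFs, and without the genes higher in tumor cells 9 of 16 and 2.

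**Figure D4:**
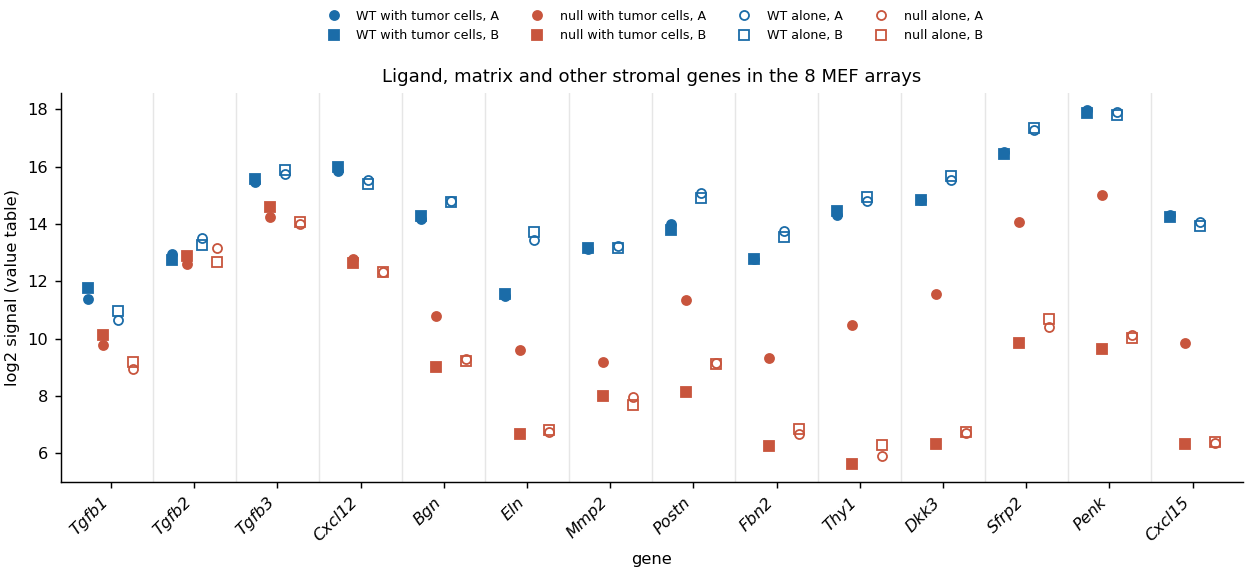
Log2 signal of 14 ligand, matrix and other stromal genes on the 8 MEF arrays, with WT in blue, null in red, co-culture filled and alone open, and slides A and B as circles and squares. Tgfb2 overlaps between genotypes, while Thy1, Dkk3, Penk and Cxcl15 show null A between the WT arrays and null B.

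Genes of the extracellular matrix were mostly higher in WT MEFs, but not the main fibrillar collagens. Of 36 collagen genes, 18 were higher in WT and 8 in null MEFs (median 0.63). The count in null MEFs was 5 without WT array A or null array B, and 4 on the processed scanner signals or with normexp. Col12a1 (3.25 ± 0.48) and Col11a1 (2.83 ± 0.34), and the beaded-filament chains Col6a1 (2.01 ± 0.27) and Col6a2 (2.11 ± 0.37), were higher in WT MEFs. Col11a2 (by 1.82 ± 0.21), Col14a1 (by 1.25 ± 0.15) and Col4a2 (by 0.59 ± 0.16) were higher in null MEFs. Col1a2 was at 18.35 and 18.41 in WT and 17.38 and 17.84 in null MEFs and did not pass (adjusted p = 0.182). Enzymes that fold, process and cross-link collagen showed 13 of 27 higher in WT and 1 in null MEFs, with Lox as above, Loxl3 (1.85 ± 0.18), the prolyl hydroxylase P4ha2 (1.30 ± 0.12) and the collagen chaperone Serpinh1 (0.54 ± 0.13) among them. The calls of Serpinh1 and Col4a2 were lost with 1 array left out (adjusted p up to 0.0822 and 0.11). Without WT array B the count of these enzymes was 7 and 0, without WT A 8 and 1, and without null A or on the processed scanner signals 8 and 0.

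Elastic fibre and glycoprotein genes had 26 of 39 higher in WT and 4 in null MEFs (median 0.89). Eln, the elastin gene, was at 11.47 and 11.56 in WT and 9.59 and 6.67 in null MEFs (3.39 ± 0.68, adjusted p = 0.00335, limma). The microfibril genes Fbn1 (2.76 ± 0.32), Fbn2 (5.0 ± 0.76) and Mfap2 (3.94 ± 0.33) and the thrombospondin Thbs2 (3.83 ± 0.18) were higher in WT MEFs. Matn4 (by 2.21 ± 0.29) and Fbln7 (by 2.13 ± 0.34) were higher in null MEFs. Small leucine-rich proteoglycans, which regulate collagen fibrils, had 7 of 11 higher in WT and 2 in null MEFs. Bgn, which encodes biglycan, was at 14.17 and 14.26 in WT and 10.77 and 9.02 in null MEFs (4.32 ± 0.44, adjusted p = 3.58e-05). Dcn, the decorin gene, was higher in null MEFs by 1.16 ± 0.32, a call lost without WT A, WT B or null B (adjusted p up to 0.134). Lum, which encodes lumican, read 9.03 and 8.87 in WT and 7.42 and 7.67 in null MEFs, higher in WT by 1.41 ± 0.14, whereas among MEFs alone it was higher in null (by 0.88 ± 0.14). The computed tumor share of these genes was small, with a list median of 4.68% and 5.17% of the WT level for the proteoglycans and 13.8% and 13.5% for the glycoproteins.

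Among proteases of the matrix and their inhibitors, 20 of 34 were higher in WT and 2 in null MEFs (median 0.86). Mmp2, a gelatinase, was at 13.12 and 13.16 in WT and 9.19 and 8.01 in null MEFs (4.54 ± 0.33, adjusted p = 3.95e-06, limma). Mmp3, the stromelysin, was at 12.22 and 12.33 in WT and 10.68 and 10.65 in null MEFs (1.61 ± 0.11), with 10.33 in tumor cells alone, and its sign turned after the tumor share was subtracted (-0.45, adjusted p = 0.134). Mmp10 was higher in WT by 2.43 ± 0.22, with 13.27 in tumor cells alone. The inhibitors Timp1 (1.53 ± 0.11), Timp2 (0.97 ± 0.10) and Timp3 (1.82 ± 0.28) were higher in WT MEFs as well. The collagenase Mmp13 (by 1.13 ± 0.20) and Adamts9 (by 0.71 ± 0.21, with an adjusted p up to 0.159 when 1 array was left out) were higher in null MEFs, and Mmp9 did not pass (adjusted p = 0.299). Without the genes higher in tumor cells 11 of 24 were higher in WT and 1 in null MEFs.

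Contractile genes had 12 of 18 higher in WT and 1 in null MEFs (median 1.04). Enteric smooth muscle actin Actg2 (3.41 ± 0.27), the serum response factor coactivator Myocd (2.69 ± 0.14), calponin Cnn1 (1.89 ± 0.32), myosin light chain kinase Mylk (1.70 ± 0.14) and tropomyosin Tpm1 (0.95 ± 0.09) were higher in WT, and the intermediate filament gene Des in null MEFs (by 0.75 ± 0.17, a call lost without null B, adjusted p = 0.0521). Without the genes higher in tumor cells 5 of 12 were higher in WT and 1 in null MEFs. Of 30 integrins and laminins, 15 were higher in WT and 4 in null MEFs. Itga11, the fibroblast collagen receptor (4.19 ± 0.49), Itga8 (2.97 ± 0.31) and Lama4 (3.22 ± 0.35) were higher in WT, and Itga10 in null MEFs (by 2.39 ± 0.19). Without WT A the integrin and laminin count was 8 in WT and 3 in null MEFs, without WT B 8 and 4, without null A 9 and 5, on the processed scanner signals 7 and 2, and with normexp 9 and 3, and without null B 11 and 2. EMT transcription factors and cadherins had 10 of 16 higher in WT and 3 in null MEFs, with Snai2 (1.32 ± 0.19) and Cdh11 (2.56 ± 0.32) in WT and Cdh3 (by 1.51 ± 0.24) in null MEFs. Without null array B this count was 9 and 1, and on the processed scanner signals 6 and 3.

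Secreted modulators of Wnt and BMP signalling were among the widest differences. Of 36 Wnt pathway genes, 19 were higher in WT and 3 in null MEFs (median 0.69). Dkk3, a secreted Dickkopf family member, was at 14.84 and 14.83 in WT and at 11.55 and 6.32 in null MEFs (5.90 ± 1.18, adjusted p = 0.00329, limma). With any 1 of the 4 arrays left out its adjusted p was at most 0.0224. Null A lay far above null B, and null MEFs alone read 6.72 and 6.73. The Wnt antagonists Sfrp1 (3.56 ± 0.15) and Dkk2 (4.18 ± 0.15), the agonist Rspo1 (3.95 ± 0.25) and its receptor Lgr5 (at least 6.79-fold) were higher in WT, and the antagonist Frzb (at least 2.95-fold) and receptor Fzd4 (by 0.93 ± 0.18) in null MEFs. Lgr5 was not well above background in null MEFs, nor Frzb in WT MEFs. Sfrp2 was at 16.52 and 16.45 in WT and 14.07 and 9.86 in null MEFs and passed (4.52 ± 1.34, adjusted p = 0.0269), but not without WT A, WT B or null B (adjusted p up to 0.211). Of 25 BMP genes, 11 were higher in WT and 4 in null MEFs, the latter near the 14.8% of all genes. The BMP antagonist Grem1, gremlin, was at 11.67 and 11.64 in WT and 7.72 and 5.52 in null MEFs (5.04 ± 0.61, adjusted p = 0.000133). The ligands divided, with Bmp4 (1.53 ± 0.19) and Gdf10 (3.63 ± 0.33) higher in WT and Bmp7 in null MEFs (by 2.38 ± 0.22).

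Growth factors leaned the same way. Of 16 genes of the insulin-like growth factor axis, 9 were higher in WT and 3 in null MEFs, among them the ligands Igf1 (1.77 ± 0.18) and Igf2 (at least 3.05-fold, not well above background in null MEFs) and the binding proteins Igfbp2 (4.50 ± 0.71) and Igfbp3 (2.73 ± 0.32). Igfbp5 was higher in null MEFs (by 1.06 ± 0.18). Of 45 growth and angiogenic factors and receptors, 25 were higher in WT and 4 in null MEFs (median 0.78). Gas6, the ligand of the AXL receptor family, was at 16.01 and 16.26 in WT and 13.02 and 11.20 in null MEFs (4.02 ± 0.50, adjusted p = 0.000158, limma). Nrg1 (2.60 ± 0.12), Fgf18 (3.22 ± 0.19), Fgf7 (2.27 ± 0.30) and the PDGF receptors Pdgfrb (2.20 ± 0.16) and Pdgfra (1.26 ± 0.11) were higher in WT MEFs. Areg was higher in WT by 2.91 ± 0.12, but it read 5.63 and 5.67 in WT MEFs alone and 11.33 and 11.49 in tumor cells alone, and after the tumor share was subtracted its sign turned (-0.09, adjusted p = 0.653). Fgf5 was at 5.09 and 5.09 in WT and 8.60 and 8.17 in null MEFs, at least 9.82-fold higher in null as it was not well above background in WT MEFs, and Pdgfb was higher in null by 1.02 ± 0.18. Without the genes higher in tumor cells, 11 of 31 factors were higher in WT and 4 in null MEFs.

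Positional genes differed in both directions. Of 33 Hox genes, the homeobox factors that record position along the body and limb, 15 were higher in WT and 12 in null MEFs. Higher in null were Hoxd4 (by 4.42 ± 0.31), Hoxd8 (3.24 ± 0.39), Hoxd9 (4.31 ± 0.51) and Hoxd13 (2.33 ± 0.30), and Hoxd10 (at least 15.9-fold) and Hoxd11 (at least 12.7-fold), which were not well above background in WT MEFs. Hoxd9 read 5.70 and 5.69 in WT and 9.92 and 10.08 in null MEFs. Higher in WT were Hoxc9 (4.42 ± 0.64), Hoxb9 (3.82 ± 0.47), Hoxc6 (2.81 ± 0.21) and Hoxc13 (2.02 ± 0.25). The forelimb factor Tbx5 was at 6.71 and 6.53 in WT and 11.49 and 12.40 in null MEFs, higher in null by 5.33 ± 0.39 (adjusted p = 4.12e-06, limma). Tbx4 (4.89 ± 0.65) and Pitx1 (3.64 ± 0.22), factors of the hindlimb, and the early somite and neural crest factor Pax3 (4.10 ± 0.33) were higher in WT MEFs. By cluster, a split chosen after the values were seen, 6 of 11 HoxA genes were higher in WT and 3 in null MEFs, 4 and 2 of 8 HoxB genes, 5 and 0 of 7 HoxC genes, and 0 and 7 of 7 HoxD genes. Of all 46 other homeobox and T-box genes tested, 22 were higher in WT and 9 in null MEFs. XIST, the RNA that silences the inactive X chromosome in female cells, read 12.68 and 12.54 in WT and 8.38 and 6.40 in null MEFs (5.21 ± 0.47), with 5.65 and 5.61 in null MEFs alone. A second array entry, Xist, gave 9.78 and 9.68 in WT and 6.36 and 5.25 in null MEFs. The Y-linked genes Eif2s3y, Kdm5d, Uty and Ddx3y, chosen after the XIST values were seen, were not well above background on any of the 4 arrays. These positional and X-linked differences lie between the same groups as the Hsf1 genotype and cannot be told apart from it.

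Genes of DNA replication stood on the null side. Of 28 tested, 14 were higher in null and 1 in WT MEFs (median -0.42). The helicase subunits Mcm3 (by 0.99 ± 0.16), Mcm7 (by 0.75 ± 0.12) and Mcm4 (by 0.63 ± 0.15) and the flap endonuclease Fen1 (by 0.76 ± 0.13) were higher in null MEFs, and the ribonucleotide reductase subunit Rrm2 in WT MEFs (0.57 ± 0.16), though not after the tumor share was subtracted (-0.49). With 1 array left out the calls of Rrm2 and Mcm4 were lost at least once (adjusted p up to 0.154 and 0.0813). Mcm7 was at 15.34 and 15.43 in WT and 16.02 and 16.25 in null MEFs and at 15.67 in tumor cells alone. The count moved with the processing and the arrays. It was 7 in null without WT A, 8 without WT B or null B, 1 on the processed scanner signals, 3 with normexp and 23 after the tumor share was subtracted. The computed tumor share of these genes' WT level had a median of 55.9% (A) and 52.7% (B), and its part in the result was not tested. Of 26 mitosis genes 2 were higher in WT and 3 in null MEFs, both below the 14.8% of all genes in each direction. The counts were 0 and 1 without WT array B, and 0 and 15 after subtraction.

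Genes of cholesterol synthesis were higher in WT MEFs, with 15 of 24 passing and 0 higher in null MEFs (median 0.51). Sc4mol, a sterol methyl oxidase, was at 16.33 and 15.81 in WT, 14.59 and 14.13 in null MEFs and 15.55 in tumor cells alone (1.71 ± 0.20, adjusted p = 0.000103, limma). The mevalonate enzymes Mvd (1.12 ± 0.16) and Mvk (0.99 ± 0.12) and the sterol enzymes Nsdhl (1.06 ± 0.13) and Lss (0.97 ± 0.16) were higher in WT too. The count was 8 on the processed scanner signals and 18 after subtraction, with 10 without WT array B. ER stress genes had 13 of 22 higher in WT and 1 in null MEFs. The list's median level in tumor cells alone was 14.51 and 14.25. Trib3 was at 14.45 and 14.34 in WT, 12.61 and 12.05 in null MEFs and 14.49 in tumor cells alone (2.06 ± 0.19), and Chac1 (1.71 ± 0.15), the protein disulfide isomerase Pdia6 (1.37 ± 0.12) and the stress transcription factor Atf4 (0.82 ± 0.12) were also higher in WT. Atf3 was higher in null MEFs by 2.77 ± 0.35. Without WT B that count was 8 in WT and 1 in null MEFs, on the processed scanner signals 4 and 1, with normexp 7 and 1, and without the genes higher in tumor cells 4 of 13 and 1.

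The genes furthest apart were chosen by rank among those well above background on all 4 arrays. On the null side Susd4, which encodes a complement-regulating membrane protein, was at 5.52 and 5.53 in WT and 12.15 and 12.88 in null MEFs, a 127-fold difference (adjusted p = 5.7e-07, limma). Lsr, the receptor that organises tricellular junctions (76.8-fold), the tight junction protein Cgn, the transcriptional coactivator Cited1 (73.8-fold), the muscle phosphoglycerate mutase Pgam2 (71.2-fold), the melanocyte gene Mlana (48.5-fold), the cadherin Celsr1 (47-fold) and Fam174b (64.1-fold) followed on that side, with the unnamed entries BC021767 (55.8-fold) and ENSMUST00000113743 (101-fold). Several genes were not well above background in WT MEFs, so only a bound is given. Il28ra, a chain of the receptor for type III interferon, was at least 83.4-fold higher in null MEFs, Bex1 at least 54.3-fold, the epithelial transcription factor Grhl3 at least 49.4-fold and the pyrimidine-degrading enzyme Dpyd at least 37.7-fold.

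On the WT side Penk, which encodes the enkephalin precursor, was at 17.97 and 17.87 in WT and at 15.01 and 9.62 in null MEFs, where A lay nearer to the WT arrays than to B. Its difference was 5.60 ± 1.21 (adjusted p = 0.00527, limma, and at most 0.0324 with any 1 of the 4 arrays left out). Nts, the neurotensin gene, showed the same spread (10.57 and 5.81 in null A and B, 4.47 ± 1.06). Msmp (5.33 ± 0.84), the membrane raft protein Rftn1 (4.90 ± 0.61), Slc22a17 (4.76 ± 0.46) and the caveolin Cav3 (4.55 ± 0.38) completed the list with the chemokine, matrix and other genes named above. Not well above background in null MEFs were Il20ra, at least 11.4-fold higher in WT, the calcium channel subunit Cacna2d3 (at least 7.47-fold), Lgr5 (at least 6.79-fold) and LOC100044727 (at least 6.12-fold).

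The same genotype comparison in MEFs grown alone gave 8744 genes (33.8%), 4110 higher in WT (15.9%) and 4634 higher in null (17.9%). Its log2 differences rest on arrays that those in co-culture did not use. The spread of each gene was fitted over all arrays, so the calls of the comparisons are not independent. Of the genes that passed in co-culture, 5902 passed alone with the same sign (77.3% of the co-culture calls and 67.5% of the calls alone), 2879 higher in WT and 3023 in null, and 99 passed with opposite signs. With each comparison fitted on its own arrays only, 5329 passed in both with the same sign and 91 with opposite signs. Across the 25840 genes the differences in co-culture and alone correlated with r = 0.87, a value over genes and not over independent samples. The interferon effectors that passed higher in null MEFs were 35 alone and 38 in co-culture, all 35 in both. The matrix glycoproteins that passed higher in WT were 32 alone and 26 in co-culture, with all 26 in both.

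**Figure D5:**
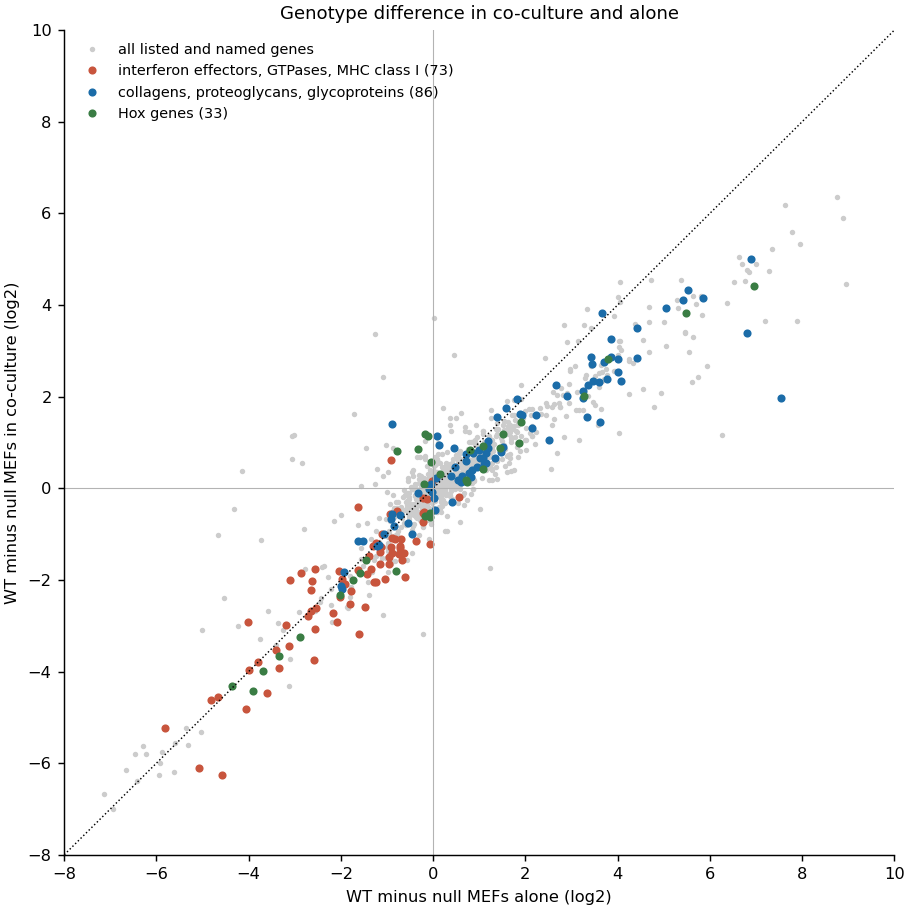
Difference between WT and null MEFs (log2) in co-culture (vertical axis) against the same difference in MEFs grown alone (horizontal axis) for all listed and named genes that were tested, 1 point per gene, with the dotted line marking equality. Genes of the interferon lists (red) lie at the lower left, matrix genes (blue) mostly at the upper right and there mostly below the line, and Hox genes (green) at both ends.

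Whether a difference in co-culture differed from that alone was tested as a contrast of contrasts, which 783 genes passed (3.03%), 508 toward WT (1.97%) and 275 toward null (1.06%). This split turned with the tumor share. After its subtraction 118 genes passed toward WT and 401 toward null, and without the genes higher in tumor cells 26 and 49. Of the 508, 423 were at least 2-fold higher in tumor cells than in WT or in null MEFs alone, and of the 275, 111. Among the interferon effectors 3 passed toward null and 1 toward WT. Oas2 was higher in null by 6.12 ± 0.16 in co-culture and by 5.07 ± 0.16 alone (difference 1.04 ± 0.23, adjusted p = 0.0361, limma), and Oas3 by 3.19 and 1.60 (adjusted p = 0.00289). Stat2 was at 11.91 and 12.04 in WT and 12.07 and 12.08 in null MEFs alone (adjusted p = 0.694) and higher in null by 1.11 ± 0.15 in co-culture (difference 1.01 ± 0.21, adjusted p = 0.0278). For Rsad2 the test did not pass (adjusted p = 0.0834), nor for Hsf1 (0.401), Tgfb1 (0.942), Tgfb3 (0.386) or Cxcl12 (0.07 ± 0.24, adjusted p = 0.989).

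Some WT-high genes were closer between genotypes in co-culture than alone. Null array A held WT MEF signal, and the part of that signal in these differences was not tested. Col4a5, a basement membrane collagen chain, was at 5.76 and 5.58 in null MEFs alone and at 11.13 and 10.72 in co-culture, against 12.91 and 12.89 in WT MEFs, so its WT minus null difference was 7.55 alone and 1.98 in co-culture. Tumor cells alone read 11.66, and after the tumor share was subtracted the co-culture difference was 2.45. The same held for Cyp1b1, a xenobiotic-metabolising P450 (6.27 and 1.17), the retinoic acid hydroxylase Cyp26b1 (5.93 and 2.67), the BMP target Id4 (4.80 and 1.78), the nuclear receptor Nr2f1 (4.94 and 2.08), the cell cycle gene Ccnd1 (4.56 and 2.16) and Wscd2 (5.56 and 2.97). Their levels in tumor cells alone ran from 9.22 (Wscd2) to 15.61 (Ccnd1), and after the tumor share was subtracted the Cyp1b1 difference in co-culture was 1.84. Hes1, a target of Notch, turned sign, though its co-culture call was lost on both forms of the scanner signals. It was at 9.26 and 8.48 in WT and 7.74 and 7.51 in null MEFs alone, and at 7.72 and 7.10 in WT and 9.20 and 9.11 in null MEFs in co-culture, where it was higher in null by 1.75 ± 0.37 (difference -2.99 ± 0.53, adjusted p = 0.0118). Its level in tumor cells alone was 6.26, below that of all 4 sorted MEF arrays.

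In the other direction the 8 genes named by rank were all higher in tumor cells alone than in WT MEFs alone. Tnnt2, the cardiac troponin T gene, read 5.88 and 6.45 in WT and 6.02 and 6.27 in null MEFs alone, 13.24 and 13.32 in WT and 9.56 and 9.55 in null MEFs in co-culture, and 13.29 in tumor cells alone. The other 7 were higher in null MEFs alone, by 1.27 (Tas2r113) to 4.66 (Ica1). In co-culture Tas2r113, Gm3652, LOC100042220, Gm4638, Gng2 and 1190003J15Rik were higher in WT MEFs and Ica1 in null MEFs (by 1.02 ± 0.11). After the tumor share was subtracted, Gng2 (-1.62), 1190003J15Rik (-1.04) and LOC100042220 (-0.55) had the opposite sign. The co-culture calls of Gng2, 1190003J15Rik and Gm4638 were also lost with 1 array left out (adjusted p up to 0.0669 for Gng2 and 0.0761 for Gm4638). Lum, which tumor cells express little (5.07), was among the genes that turned from higher in null alone to higher in WT in co-culture (difference 2.29 ± 0.20, adjusted p = 0.000147). So did Mmp3, higher in null by 1.71 ± 0.11 alone and in WT by 1.61 ± 0.11 in co-culture (difference 3.32 ± 0.16, adjusted p = 2.58e-06), with 10.33 in tumor cells alone. The co-culture sign of Mmp3 turned after the tumor share was subtracted, as given above.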

How the data were processed

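RNA (0.5 ug) was labelled in 1 colour and hybridised to Agilent mouse arrays, 1 array per sample. The authors' value table was used, whose deposited log2 values had array medians of 6.34 to 6.40. Compared with the deposited scanner intensity over 25811 genes with 1 spot, it followed the median signal before background subtraction (r = 0.992 to 0.999 on the 12 sound arrays) more closely than the processed signal (r = 0.975 to 0.991). How the submitters scaled it is not given in the sources used here. Agilent Feature Extraction is named as version 10.1.1.1 per the file headers and 9.1 per the submitters' processing notes. The scanner files of 2 tumor cell arrays did not match their value columns and were left out of alternatives on scanner signals.

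Genes well above background on both arrays of at least 1 group were tested, 25840 of 36413 names. Group means over 14 arrays in 7 groups (7 residual degrees of freedom) were fitted with limma 3.58.1 in R 4.3.3 (lmFit and eBayes), with Benjamini-Hochberg adjustment over all genes tested. The fit was also run on simulated data with independent noise on each array. That setting lacks the shared slide deviations of these arrays, so it does not bear on the p-values given here. Where a group was not well above background, the fold is a bound against the lowest signal well above background on each array, or the gene's own where higher. That lowest signal was 4.50 to 4.75 on the log2 scale, so for a gene that read higher the bound is the observed fold. Alternatives were a replicate block, other filters, sets of arrays and normalizations, processed and normexp scanner signals, leaving out genes higher in tumor cells, each array in turn and, added after seeing the data, subtraction of the tumor share and removal of the 2 arrays with faulty scanner files. For that subtraction each sorted array lost its share of tumor-typical signal (37.1% and 36.7% in WT, 7.52% and 7.76% in null MEFs) times the mean of the partner tumor cells. The remainder was divided by the share left, with the lowest signal well above background as a floor. The partner cells came from cultures whose MEFs had mitomycin C, per the labels' protocols. Their median fibroblast marker level was 11.52 and 11.37 with WT and 10.37 and 10.66 with null MEFs. Tumor cells alone had 6.05 and 6.46, so MEF signal may have been subtracted too.

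Replicates A and B lay on 1 slide each. Deviations of same-lettered arrays from their group means correlated at 0.30 to 0.60 between MEF groups and at 0.09 to 0.60 between all groups, so not every pair exceeded 0.1 and the block was not the main fit. For the pair compared here, WT and null MEFs in co-culture, the correlation was 0.49. The main fit therefore left slide differences in its spread.

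The comparison, gene lists and members were chosen with earlier results of these data known. Named genes were Hsf1, Tgfb1, Tgfb2, Tgfb3, Cxcl12 and Cxcr4, the 12 highest and lowest differences among genes above background on all 4 arrays, per direction the 4 largest bounds and the 8 largest differences between contrasts, and per list the 6 members with the smallest p per direction and members that did not pass. Some further list members, and the Y-linked genes and Xist, were named after their values were seen. Of the names, 23707 matched a RefSeq symbol. Some genes that met this rule are not reported here. No gene list was tested as a set.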

Additional observations from a re-analysis of the deposited data

Results flagged for a closer look

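The genotype difference in co-culture differed from that in MEFs alone for these named genes (limma contrast of contrasts, adjusted p under 0.05, WT minus null in co-culture less the same alone, log2). The change lay toward WT for Tas2r113 (4.63), 1190003J15Rik (4.53), LOC100042220 (4.20), Gm3652 (4.18), Tnnt2 (3.71), Gng2 (3.70) and Ica1 (3.64). It lay on the same side for Mmp10 (3.53), Gm4638 (3.38), Mmp3 (3.32), Mmp13 (2.59), Areg (2.45), Lum (2.29) and Itga10 (2.15). It lay on the same side for Tgfbi (1.91), Tapbpl (1.54) and Hspa4l (0.87). Of these genes Ica1, Mmp13, Itga10 and Tgfbi were still higher in null MEFs in co-culture, but by less than alone.

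The difference lay toward null MEFs for Col4a5 (-5.57), Cyp1b1 (-5.10), Pitx1 (-4.25), Ltbp2 (-3.30), Cyp26b1 (-3.26), Id4 (-3.02), Hes1 (-2.99) and Nr2f1 (-2.87). Smaller values on that side were those of Wscd2 (-2.58), Ccnd1 (-2.40), Trib3 (-2.19), Ctgf (-2.13), Cxcl5 (-2.13), Actg2 (-2.04), Timp3 (-1.70) and Oas3 (-1.58). Smaller values on that side were those of Mylk (-1.56), Chac1 (-1.47), Pdgfrb (-1.39), Ltbp1 (-1.38), Inhba (-1.32), Fzd4 (-1.22), Nrg1 (-1.15) and Car9 (-1.14). Smaller values on that side were those of Oas2 (-1.04), Vcam1 (-1.02), Stat2 (-1.01), Myocd (-0.95) and Tpm1 (-0.58). These include genes whose WT excess was smaller in co-culture than alone and genes whose null excess was larger. The co-culture arrays of WT MEFs held the tumor share described in the report, and after its subtraction 9 of the 17 differences toward WT and 11 of the 29 toward null passed with the same sign, while 3 and 1 had the opposite sign. Null array A in co-culture also held WT MEF signal (4.81% for the WT-MEF-typical genes, against -0.07% in null array B). The part of that signal in these differences was not tested.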

How the results depend on the processing

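Against 7638 genes in co-culture and 8744 alone, the processed scanner signals gave 4184 and 5342 and normexp 3842 and 4828. The genes with the same sign in both, 5902, became 3297 and 2977. The cause was not tested. The contrast of contrasts, at 783 genes, gave 193 and 133 on these signals, 519 after the tumor share was subtracted (118 toward WT, 174 with the same call as before) and 75 without genes higher in tumor cells (26 toward WT), where fewer genes were tested. With 1 array left out it gave 410 (without WT MEFs with tumor cells B) to 1029 (without null MEFs with tumor cells B). It gave at most 493 without any 1 array of WT MEFs in co-culture or of either MEFs alone. The upper end, 1029, thus rests on null array A as the only null array in co-culture, the one that held WT MEF signal. Leaving out 1 array gave 5200 to 6795 genes for co-culture and 6553 to 6769 for the MEFs alone. The lone array left in a group is then assumed to vary like the other groups. The replicate block gave 8904 genes in co-culture, 9937 alone and 1055 for the contrast of contrasts, and reversed no named gene. Of 263 named genes 40 lost their co-culture call on the processed scanner signals, 27 with normexp, 14 with only the 4 arrays fitted and 9 to 17 with 1 of them left out. Subtraction of the tumor share reversed 1190003J15Rik (-1.04), Areg (-0.092), Gng2 (-1.62), Hspa4l (-0.98), LOC100042220 (-0.55), Mmp3 (-0.45), Rrm2 (-0.49) and Tapbpl (-0.67), all expressed in tumor cells. Limits are 2 arrays a group, unsubtracted background that compresses low signals, and the unequal tumor share of the WT and null sorts.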

Other observations

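Hypoxia and glycolysis genes had 10 of 29 higher in WT MEFs and 2 higher in null MEFs in co-culture. Adm, a vasodilator peptide gene, was higher in WT MEFs (3.63 ± 0.39, adjusted p = 5.65e-05, limma), with 6.31 in tumor cells alone. The lactate exporter Slc16a3 (2.56 ± 0.18) and the carbonic anhydrase Car9 (2.53 ± 0.16) were higher in WT MEFs, and the aldolase Aldoc (by 2.70 ± 0.17) and the hexokinase Hk2 (by 0.94 ± 0.13) in null MEFs. The count was 4 and 2 without WT array B, 5 and 2 without null array A, 5 and 1 on the processed scanner signals, and 8 and 7 after the tumor share was subtracted. Immediate early genes had 5 of 20 higher in WT and 3 in null MEFs, the latter near the 14.8% of all genes. Without the genes higher in tumor cells the counts were 0 and 2 of 12. Fosl1 (2.25 ± 0.14) and the ERK phosphatase Dusp6 (1.61 ± 0.20) were higher in WT, and Myc (by 2.39 ± 0.26) and Nr4a1 (by 1.66 ± 0.38, a call lost without null B, adjusted p = 0.0667) in null MEFs.

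Imprinted growth genes, which are expressed from 1 parental copy, had 7 of 19 higher in WT and 4 in null MEFs, and 7 and 2 without WT array B or null array B. The fetal growth genes Dlk1 (3.79 ± 0.44), H19 (3.77 ± 0.22) and Mest (3.66 ± 0.76) were higher in WT MEFs. The cell cycle inhibitor Cdkn1c was at 9.83 and 9.84 in WT and 13.03 and 13.48 in null MEFs, higher in null by 3.42 ± 0.31. Retinoic acid genes had 7 of 19 higher in WT and 1 in null MEFs, with the binding protein Crabp1 (3.08 ± 0.25) in WT and Crabp2 (by 1.94 ± 0.33) in null MEFs. Of 24 p53 target genes 4 were higher in WT and 5 in null MEFs, and of 27 antioxidant genes of the NRF2 pathway 4 and 5, shares near the 14.8% of all genes in each direction. Both moved with the arrays, to 2 and 3 for the p53 targets without WT B or null A, and to 3 and 3 for the NRF2 genes without WT B. Among epithelial markers 7 of 19 were higher in WT and 3 in null MEFs. Krt19 was at 7.41 and 7.39 in WT and 11.56 and 11.89 in null MEFs, with 11.70 and 11.98 in null MEFs alone and 5.36 in tumor cells alone, and Krt18 was higher in WT (1.39 ± 0.22), with 16.50 in tumor cells alone. Of 13 bone, cartilage and fat markers 4 were higher in WT and 2 in null MEFs, among the latter the fat cell regulator Pparg (by 2.33 ± 0.24). The null share of this list was near the 14.8% of all genes.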
